A study of Mus musculus with 12 samples.

Results

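The amino acid arm of the integrated stress response was described here through 41 listed genes in RAW264.7, a macrophage-like cell line of the mouse. The list was drawn from known targets and partners of the transcription factor ATF4 and from the enzymes that charge transfer RNAs, and members were found by gene symbol in the table of array values. It was chosen with earlier results of these data known, so its counts beside all genes are a description and not an independent test. Of the 41 genes, 39 had a probe set of their own among 30464 named genes. Aars shared its probe set with another gene and was not given a value, and Pycr1 was not analysed here. The levels of Vldlr (4.73 to 4.86) and Cbs (4.97 to 5.13) lay below the array median on all 12 arrays, so 37 members were tested. Each of the 37 exceeded the median on all 12 arrays, so none was tested because of its level in 1 group alone.

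RNA was measured 24 h after the cells were given 1 of 4 media, with 3 arrays per group. KO medium (replicates 1, 2 and 3) held 50% medium from PyMT-41C cells in which JMJD6 had been knocked out. SCR medium with CSH (1, 2 and 4) held 50% medium from SCR PyMT-41C cells together with CSH, which the labels give as a blocker of the ANXA-1 receptor. SCR medium (1, 3 and 4) was the same conditioned medium alone, and normal medium (2, 3 and 4) was unconditioned. JMJD6 was therefore altered in the cells that made the medium and not in the measured cells, and the labels name neither CSH in normal medium nor a vehicle group. Whether replicates came from separate cultures is not labelled. The p-values therefore reflect the scatter of these samples alone, and that scatter may be technical.

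ATF4 is a transcription factor whose translation rises when the initiation factor eIF2alpha is phosphorylated, as happens when amino acids run short or unfolded protein gathers in the endoplasmic reticulum. It binds DNA as a dimer with C/EBP proteins at composite C/EBP-ATF elements, and its targets include genes for amino acid synthesis, uptake and transfer RNA charging. In macrophages the pathway is known to be engaged by nutrient limitation, oxidative stress and inflammatory signals.

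Levels below are log2 array signals, and differences are log2 differences from limma with their standard error (SE). A gene counted as higher or lower where the p-value of the limma fit, adjusted by Benjamini-Hochberg over all 18119 genes tested, was below 0.05. Medians of all probe sets ran from 5.40 to 5.52 over the arrays. All 8 macrophage markers passed the filter, with a mean level of 13.27 to 13.37 in KO medium, 13.16 to 13.44 in SCR medium with CSH, 13.18 to 13.32 in SCR medium and 13.52 to 13.58 in normal medium. In SCR medium, 2 of them were higher than in normal medium, Itgam by 0.97 and Cd14 by 0.61. Another 4 were lower: Csf1r, the receptor for CSF1, differed by -1.79, Adgre1, which encodes F4/80, by -1.45, Ptprc by -0.50 and Cd68 by -0.15. Whether these changes had a part in the differences of the members was not tested. Of 8 mammary epithelial markers, 3 passed the filter, and the list averaged 4.98 to 5.07 over all 12 arrays. The 3 named fibroblast markers averaged 4.68 to 4.82 and none was tested. In bulk RNA, fewer cells in a given state and less RNA per cell cannot be told apart.

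Promoter sequence was set beside the list because ATF4 acts through a known element. RefSeq windows of build GRCm38.p6, from 250 bases before to 50 bases after a gene's start, were at hand for 32 of the 39 members. The core TGATGNAA, read on either strand (TTNCATCA on the other), occurred in the windows of 11 of the 32 members (34.4%), against 1219 of 27025 genes with a window (4.51%). The cAMP response element TGACGTCA, which reads the same on both strands, was in the window of 1 member, Ppp1r15a (3.12%), against 2.03% of genes. The endoplasmic reticulum stress element, on either strand, was in none of the member windows, against 0.137% of genes. No member window held more than 1 of the 3 motifs, and a match describes the letters of the window only. The 11 sites are shown with 10 bases on each side, all turned to the TGATGNAA direction and with the core in capitals, so that the variable base and the flanks can be compared.
Chac1, chr2:119351039-119351066, minus strand: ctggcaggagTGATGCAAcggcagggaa
Trib3, chr2:152344029-152344056, plus strand: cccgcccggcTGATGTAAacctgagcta
Yars, chr4:129189896-129189923, plus strand: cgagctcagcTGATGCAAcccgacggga
Asns, chr6:7693215-7693242, minus strand: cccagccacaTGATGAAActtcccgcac
Gars, chr6:55037961-55037988, minus strand: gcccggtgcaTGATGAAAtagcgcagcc
Nupr1, chr7:126625563-126625590, plus strand: aagccctgtcTGATGCAAtctggccctt
Jdp2, chr12:85599373-85599400, plus strand: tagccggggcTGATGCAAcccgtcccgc
Iars, chr13:49682127-49682154, minus strand: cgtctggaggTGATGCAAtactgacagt
Pck2, chr14:55540153-55540180, minus strand: tgtaagatacTGATGTAActttgaaggc
Tars, chr15:11399656-11399683, plus strand: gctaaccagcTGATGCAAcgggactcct
Vldlr, chr19:27216810-27216837, minus strand: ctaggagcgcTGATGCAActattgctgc

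The variable base, the sixth of the core, was C in 7 sites, A in those of Asns and Gars, and T in those of Trib3 and Pck2. A T followed the core in 3 sites, of Gars, Nupr1 and Iars. The core read in the direction of the gene in 3 sites, of Yars, Asns and Jdp2. Against normal medium, 9 of the 11 genes were higher in SCR medium, Pck2 was not, and Vldlr was not tested. Of the 21 members with a window and no core, 16 were higher and Cbs was not tested. The 7 members without a window, Aldh1l2, Cars, Cth, Eif4ebp1, Lars, Nars and Wars, are in neither count.

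The whole windows of 4 members that carry the core and differed between media are given in the direction of the gene, with the core in capitals. They come from 4 roles on the list: a transcription regulator, a feedback pseudokinase, an amino acid enzyme and a synthetase.
Nupr1, chr7:126625421-126625720, minus strand: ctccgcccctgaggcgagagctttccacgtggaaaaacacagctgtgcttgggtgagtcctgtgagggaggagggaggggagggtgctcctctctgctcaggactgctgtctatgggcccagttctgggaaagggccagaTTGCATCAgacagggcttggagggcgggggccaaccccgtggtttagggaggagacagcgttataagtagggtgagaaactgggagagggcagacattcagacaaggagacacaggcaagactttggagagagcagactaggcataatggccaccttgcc
Trib3, chr2:152344011-152344310, minus strand: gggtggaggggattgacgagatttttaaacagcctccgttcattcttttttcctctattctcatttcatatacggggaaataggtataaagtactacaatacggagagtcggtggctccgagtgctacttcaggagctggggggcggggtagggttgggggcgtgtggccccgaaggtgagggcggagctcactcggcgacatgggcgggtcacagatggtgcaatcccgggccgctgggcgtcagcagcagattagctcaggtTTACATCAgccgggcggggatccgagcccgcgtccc
Asns, chr6:7693160-7693459, minus strand: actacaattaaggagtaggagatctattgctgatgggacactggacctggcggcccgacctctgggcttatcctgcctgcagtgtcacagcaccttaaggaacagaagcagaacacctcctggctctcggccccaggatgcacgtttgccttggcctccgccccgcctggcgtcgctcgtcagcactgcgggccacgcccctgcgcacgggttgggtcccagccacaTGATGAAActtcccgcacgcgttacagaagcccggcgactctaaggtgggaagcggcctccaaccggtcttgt
Iars, chr13:49681880-49682179, plus strand: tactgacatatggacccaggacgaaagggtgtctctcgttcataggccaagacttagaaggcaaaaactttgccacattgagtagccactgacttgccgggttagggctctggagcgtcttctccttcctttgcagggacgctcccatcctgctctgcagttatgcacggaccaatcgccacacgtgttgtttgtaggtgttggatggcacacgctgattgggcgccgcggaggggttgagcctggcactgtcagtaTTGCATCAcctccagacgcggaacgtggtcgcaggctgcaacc

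SCR medium was set against normal medium to ask how medium from SCR cells alters RAW264.7 cells. Of the 37 tested members, 32 were higher in SCR medium, 1 was lower (Mthfd1l) and 4 were not called (Stc2, Shmt2, Psat1 and Pck2). Across all genes tested, 35.2% changed, 19.3% upward and 15.8% downward. The median difference of the members was 0.60, against 0.02 for all genes, and 10 members were at least 2-fold higher. The share of all genes at least 2-fold higher was not counted. For 33 members the SCR arrays and the normal arrays formed ranges without overlap, as they did for 43.3% of all genes.

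**Figure D1:**
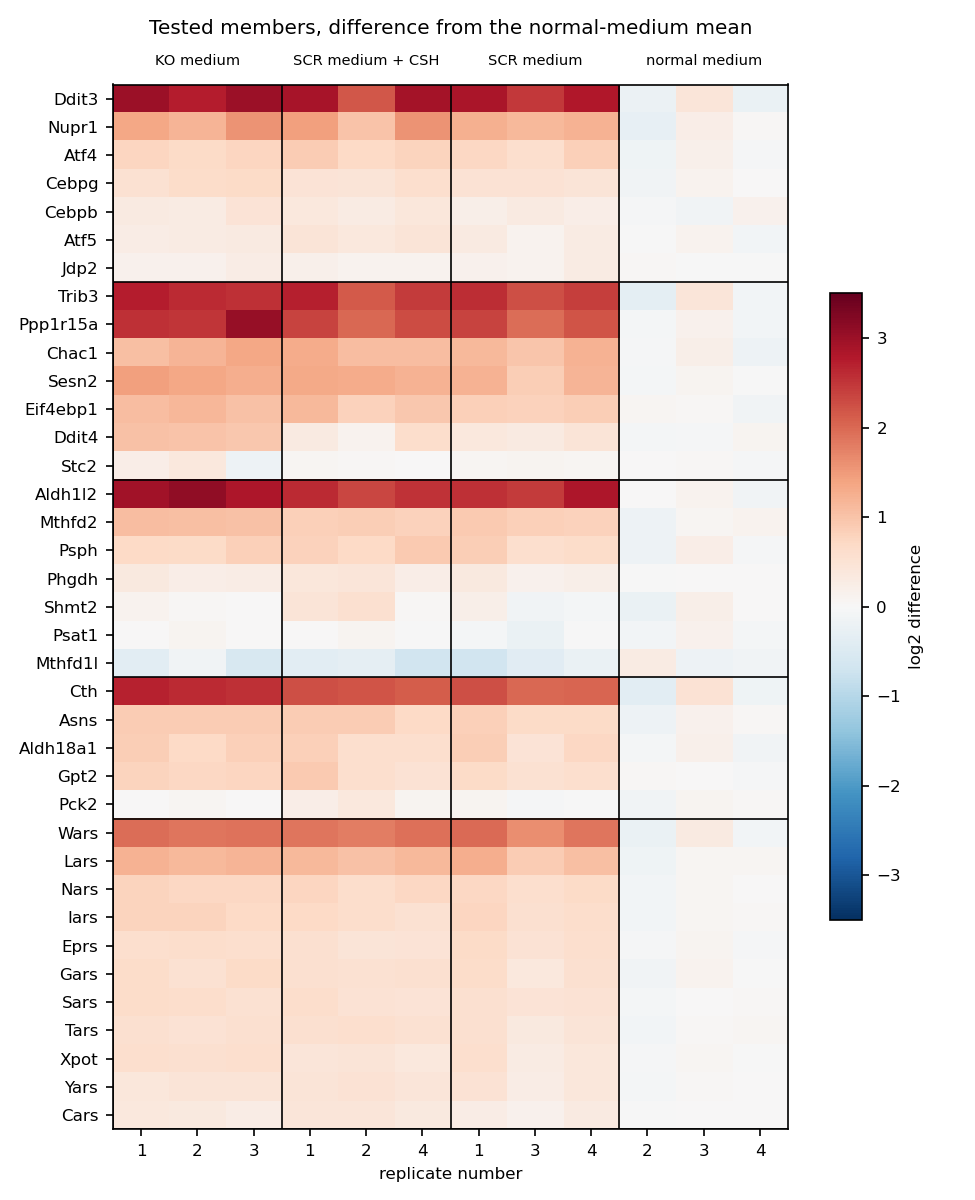
Heat map of the 37 tested members (rows, by role) on 12 arrays (columns, by medium), coloured by the log2 level minus the gene's mean in normal medium. Most rows are raised on all 9 arrays of conditioned medium; Stc2, Shmt2, Psat1 and Pck2 stay near 0 in SCR medium and Mthfd1l lies below it.

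All 7 transcription regulators were higher in SCR medium, with a median of 0.49 and a range of 0.19 to 2.71. Atf4, the factor itself, had levels of 11.24, 11.14 and 11.24 in KO medium, 11.36, 11.19 and 11.25 in SCR medium with CSH, 11.21, 11.07 and 11.32 in SCR medium and 10.32, 10.67 and 10.45 in normal medium. Every array of conditioned medium lay above every array of normal medium, and the 3 conditioned media overlapped one another. The difference of SCR from normal medium was 0.72 (SE 0.0915, adjusted p = 5.06e-05 by limma), a 1.65-fold change of the transcript. Array signals of mRNA do not measure ATF4 protein, whose amount is set largely by translation.

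Ddit3 encodes CHOP, a C/EBP-related factor induced by ATF4 under prolonged stress. Its levels were 16.02, 15.79 and 16.02 in KO medium, 15.93, 15.21 and 15.95 in SCR medium with CSH, 15.89, 15.50 and 15.83 in SCR medium and 12.84, 13.47 and 12.79 in normal medium. The conditioned media lay far above normal medium on all arrays, with replicate 2 of SCR medium with CSH the lowest of the 9. The difference of 2.71 (SE 0.206, adjusted p = 7.73e-07 by limma) was a 6.53-fold change and the largest among the members. This probe set is listed without a genome position, and the other Ddit3 probe set gave 2.21.

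Nupr1, a small stress-induced chromatin protein whose window is printed above, stood at 10.28, 10.12 and 10.50 in KO medium, 10.36, 9.93 and 10.48 in SCR medium with CSH, 10.17, 10.05 and 10.14 in SCR medium and 8.63, 9.16 and 8.97 in normal medium. It was 2.30-fold higher in SCR than in normal medium. Cebpg, the usual C/EBP partner of ATF4, had levels of 10.55, 10.67 and 10.71 in KO medium, 10.50, 10.47 and 10.62 in SCR medium with CSH, 10.54, 10.53 and 10.49 in SCR medium and 9.90, 10.14 and 10.04 in normal medium. The groups again did not overlap between conditioned and normal medium, and Cebpg differed by 0.49 (SE 0.0726, adjusted p = 0.000161 by limma). Cebpb, Atf5, an ATF4-related factor, and Jdp2, a repressor of AP-1 sites, were higher by 0.25, 0.24 and 0.19, and for Atf5 the SCR and normal arrays met at 6.78.

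**Figure D2:**
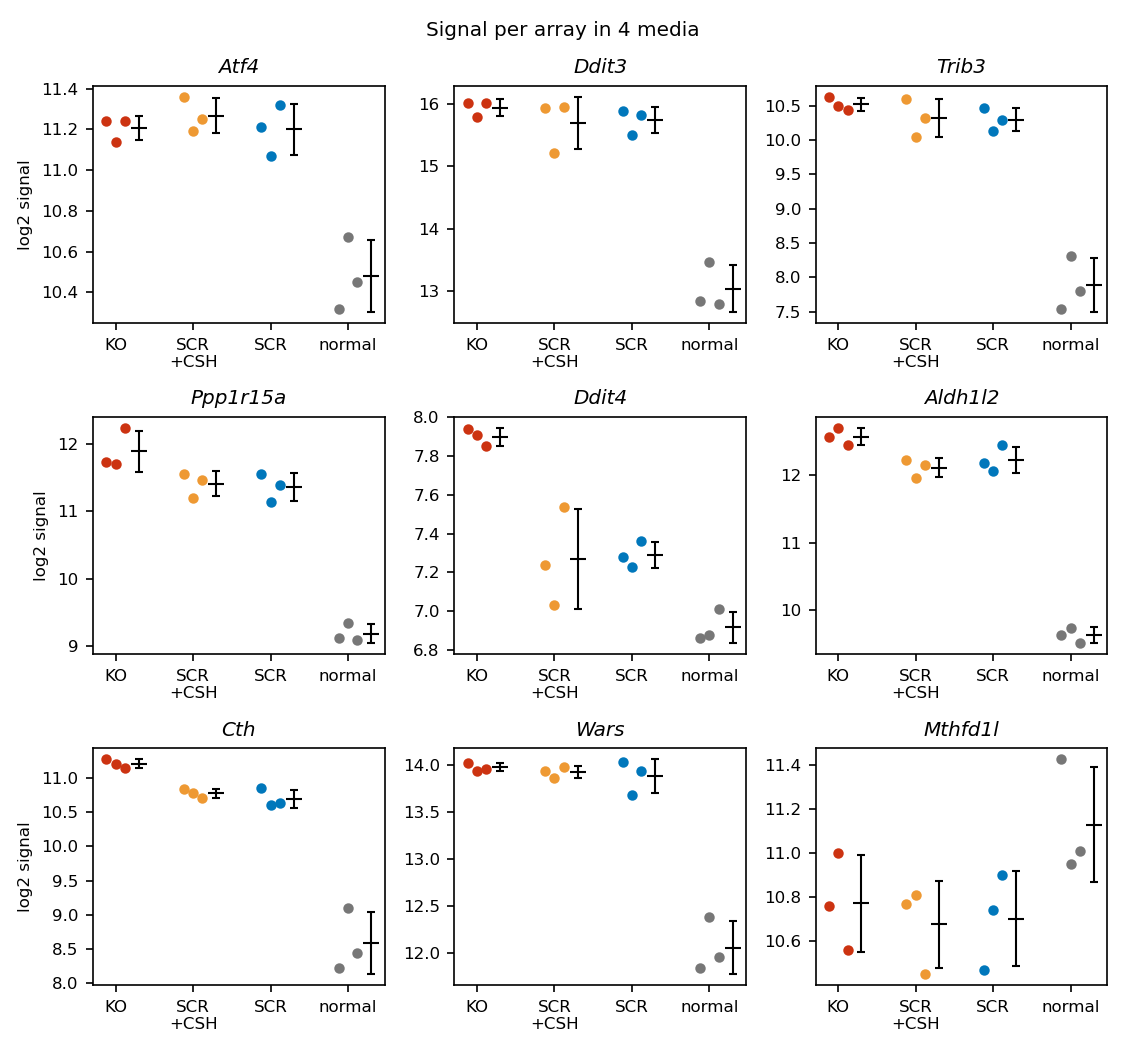
Log2 levels of 9 members on each array (points) by medium, with the group mean ± SD (n = 3) in black. For Atf4, Ddit3, Trib3, Ppp1r15a, Aldh1l2, Cth and Wars the conditioned media lie above normal medium; Ddit4 is highest in KO medium, and Mthfd1l is highest in normal medium.

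The effectors and feedback genes moved the furthest as a group: 6 of 7 were higher in SCR medium, with a median of 1.09. Trib3, a pseudokinase that feeds back on ATF4 and restrains AKT, had levels of 10.63, 10.49 and 10.44 in KO medium, 10.60, 10.04 and 10.32 in SCR medium with CSH, 10.47, 10.13 and 10.29 in SCR medium and 7.54, 8.31 and 7.80 in normal medium. Within normal medium replicate 3 was the highest, yet it stayed below all 9 other arrays. Trib3 differed by 2.41 (SE 0.176, adjusted p = 5.73e-07 by limma), or 5.33-fold.

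Ppp1r15a encodes GADD34, which guides a phosphatase to eIF2alpha and so restores translation. Its levels were 11.73, 11.70 and 12.24 in KO medium, 11.56, 11.20 and 11.47 in SCR medium with CSH, 11.55, 11.14 and 11.39 in SCR medium and 9.12, 9.35 and 9.09 in normal medium. All 3 KO arrays lay above all other arrays. The difference of SCR from normal medium was 2.17 (SE 0.15, adjusted p = 3.9e-07 by limma), or 4.51-fold.

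Chac1, which degrades glutathione, had levels of 8.74, 8.87 and 9.03 in KO medium, 8.98, 8.78 and 8.78 in SCR medium with CSH, 8.83, 8.66 and 8.92 in SCR medium and 7.65, 7.90 and 7.52 in normal medium. Sesn2, a leucine sensor that holds back mTORC1, had levels of 10.44, 10.36 and 10.28 in KO medium, 10.32, 10.31 and 10.21 in SCR medium with CSH, 10.23, 9.85 and 10.20 in SCR medium and 8.93, 9.09 and 8.98 in normal medium. Both were separate from normal medium on every array of conditioned medium. Chac1 was 2.16-fold and Sesn2 2.13-fold higher in SCR than in normal medium. Eif4ebp1, which encodes the translation repressor 4E-BP1, was 1.78-fold higher.

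Ddit4 encodes REDD1, another brake on mTORC1. It had levels of 7.94, 7.91 and 7.85 in KO medium, 7.24, 7.03 and 7.54 in SCR medium with CSH, 7.28, 7.23 and 7.36 in SCR medium and 6.86, 6.88 and 7.01 in normal medium. The KO arrays lay above all others, the SCR and SCR with CSH arrays overlapped, and normal medium was lowest. The difference of SCR from normal medium was 0.37 (SE 0.102, adjusted p = 0.0115 by limma). Stc2, a secreted glycoprotein, differed by 0.07 (SE 0.105, adjusted p = 0.657 by limma).

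Among 7 enzymes of serine synthesis and mitochondrial one-carbon metabolism, 4 were higher and 1 lower in SCR medium. Aldh1l2, which makes NADPH from formyl-tetrahydrofolate in mitochondria, had levels of 12.57, 12.71 and 12.45 in KO medium, 12.23, 11.96 and 12.16 in SCR medium with CSH, 12.18, 12.07 and 12.45 in SCR medium and 9.63, 9.73 and 9.50 in normal medium. The gap to normal medium exceeded 2 log2 units on every array. Its difference of 2.61 (SE 0.107, adjusted p = 7.65e-09 by limma), or 6.12-fold, had the smallest adjusted p among the members.

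Mthfd2, the mitochondrial methylene-tetrahydrofolate dehydrogenase, had levels of 11.84, 11.83 and 11.79 in KO medium, 11.61, 11.63 and 11.59 in SCR medium with CSH, 11.68, 11.60 and 11.59 in SCR medium and 10.60, 10.83 and 10.89 in normal medium. The KO arrays were above all arrays of both SCR media, and normal medium was lowest. Mthfd2 was 1.80-fold higher in SCR than in normal medium. Psph, the last enzyme of serine synthesis, had levels of 7.87, 7.82 and 7.99 in KO medium, 7.96, 7.87 and 8.08 in SCR medium with CSH, 8.03, 7.76 and 7.79 in SCR medium and 6.99, 7.38 and 7.11 in normal medium. The 3 conditioned media overlapped for Psph and all lay above normal medium, with a 1.62-fold difference in SCR medium.

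The other steps of the same route did less. Phgdh, the first enzyme of serine synthesis, was higher by 0.24 (adjusted p = 0.0129 by limma), while Psat1, the step between Phgdh and Psph, differed by -0.11 (adjusted p = 0.326) and Shmt2, the mitochondrial serine hydroxymethyltransferase, by 0.00 (SE 0.136). Mthfd1l, the mitochondrial formyl-tetrahydrofolate synthetase that acts after Mthfd2, had levels of 10.76, 11.00 and 10.56 in KO medium, 10.77, 10.81 and 10.45 in SCR medium with CSH, 10.47, 10.74 and 10.90 in SCR medium and 11.43, 10.95 and 11.01 in normal medium. KO replicate 2 overlapped normal medium, and the highest SCR array, replicate 4, lay just below the lowest normal array. The difference of SCR from normal medium was -0.43 (SE 0.155, adjusted p = 0.048 by limma), and the call was lost when any 1 of normal replicates 2 and 4, SCR replicates 1 and 3, KO replicate 1 or CSH replicates 1 and 2 was left out.

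Of 5 other amino acid enzymes, 4 were higher in SCR medium. Cth, which makes cysteine from cystathionine, had levels of 11.28, 11.20 and 11.15 in KO medium, 10.84, 10.78 and 10.71 in SCR medium with CSH, 10.85, 10.60 and 10.63 in SCR medium and 8.22, 9.10 and 8.45 in normal medium. Normal medium spread widely, with replicate 3 the highest, but was far below the rest, and the KO arrays lay above all other arrays. Cth was higher in SCR than in normal medium by 2.10 (SE 0.165, adjusted p = 1.01e-06 by limma), or 4.30-fold.

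Asns, asparagine synthetase, whose window carries TGATGAAA, had levels of 13.01 on each KO array, 13.00, 13.00 and 12.83 in SCR medium with CSH, 12.95, 12.80 and 12.79 in SCR medium and 11.94, 12.27 and 12.15 in normal medium. Aldh18a1, which makes the precursor of proline, had levels of 10.41, 10.25 and 10.39 in KO medium, 10.40, 10.13 and 10.14 in SCR medium with CSH, 10.42, 10.02 and 10.28 in SCR medium and 9.49, 9.74 and 9.43 in normal medium. Gpt2, the mitochondrial alanine transaminase, had levels of 9.26, 9.19 and 9.22 in KO medium, 9.39, 9.07 and 8.98 in SCR medium with CSH, 9.14, 8.99 and 9.07 in SCR medium and 8.50, 8.48 and 8.43 in normal medium. No array of conditioned medium fell to the level of normal medium for these 3 genes. In SCR medium Asns was 1.65-fold, Aldh18a1 1.61-fold and Gpt2 1.51-fold higher. Pck2, the mitochondrial phosphoenolpyruvate carboxykinase, differed by 0.01 (adjusted p = 0.944 by limma), although its window holds the core.

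**Figure D3:**
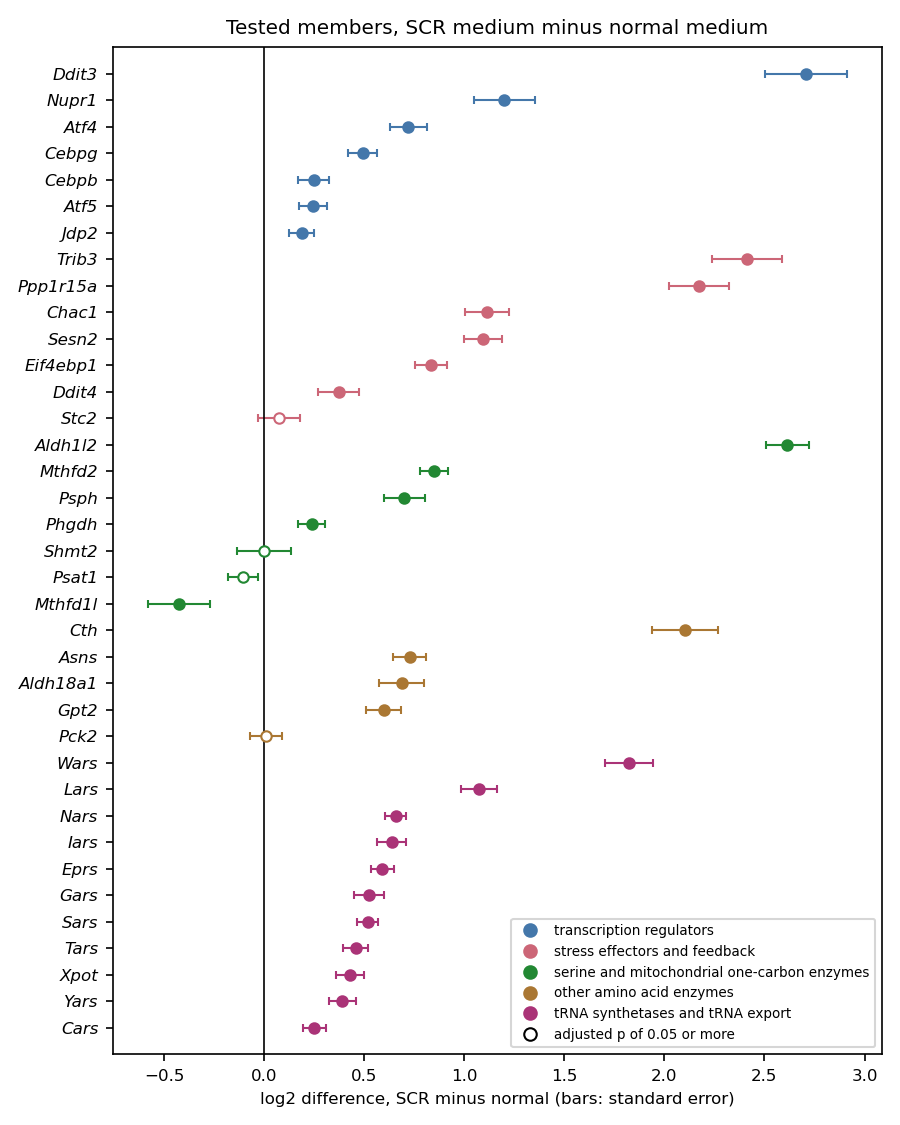
Log2 difference of SCR medium from normal medium for each tested member, by role, with its standard error (bars, n = 3 arrays per group). Ddit3, Aldh1l2, Trib3, Ppp1r15a and Cth exceed 2, and Mthfd1l lies below 0.

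All 11 tested genes of the synthetase and export group were higher in SCR medium, with a median of 0.52 and a range of 0.25 to 1.82, and none of their SCR arrays overlapped normal medium. Wars, the tryptophan enzyme, had levels of 14.02, 13.94 and 13.96 in KO medium, 13.93, 13.86 and 13.98 in SCR medium with CSH, 14.03, 13.68 and 13.94 in SCR medium and 11.84, 12.38 and 11.96 in normal medium. The conditioned media overlapped one another and stood well above normal medium. Wars differed by 1.82 (SE 0.12, adjusted p = 2.76e-07 by limma), or 3.54-fold, the largest difference of the group.

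Lars, the leucine enzyme, had levels of 12.50, 12.41 and 12.46 in KO medium, 12.40, 12.30 and 12.40 in SCR medium with CSH, 12.56, 12.17 and 12.32 in SCR medium and 11.13, 11.35 and 11.35 in normal medium. Nars, the asparagine enzyme, had levels of 16.28, 16.25 and 16.25 in KO medium, 16.26, 16.14 and 16.25 in SCR medium with CSH, 16.23, 16.09 and 16.19 in SCR medium and 15.43, 15.59 and 15.52 in normal medium. Iars, the isoleucine enzyme, had levels of 12.31, 12.31 and 12.22 in KO medium, 12.23, 12.13 and 12.04 in SCR medium with CSH, 12.27, 12.07 and 12.13 in SCR medium and 11.43, 11.58 and 11.55 in normal medium. For all 3 enzymes every array of conditioned medium was above normal medium, and SCR replicate 3 was the lowest SCR array. Lars was 2.10-fold, Nars 1.58-fold and Iars 1.55-fold higher in SCR than in normal medium. Eprs, Gars, Sars, Tars, Yars and Cars, which charge glutamate and proline, glycine, serine, threonine, tyrosine and cysteine, were higher by 0.25 to 0.59. Xpot, which exports transfer RNAs from the nucleus, was higher by 0.43.

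The synthetases outside the list were taken from 2 further lists. Members and further lists were chosen with earlier results of these data known, so the contrast between them is a description only. Of 11 other cytosolic synthetases and scaffold proteins, 3 were higher and 3 lower in SCR medium, with a median of 0.05. Kars, the lysine enzyme, had levels of 13.26, 13.00 and 13.11 in SCR medium against 14.10, 13.99 and 14.03 in normal medium, a difference of -0.92 (SE 0.0828, adjusted p = 3.07e-06 by limma). Qars, the glutamine enzyme, had levels of 13.04, 13.02 and 13.00 in SCR medium against 13.61, 13.57 and 13.59 in normal medium, a difference of -0.57. Both were lower on every SCR array than on any normal array. Rars, the arginine enzyme, and Eef1e1, a scaffold protein of the multisynthetase complex, were higher by 0.47 and 0.63. Of 16 mitochondrial synthetases, 3 were higher and 4 lower, with a median of -0.02 and differences between -0.32 (Vars2) and 0.28 (Rars2).

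**Figure D4:**
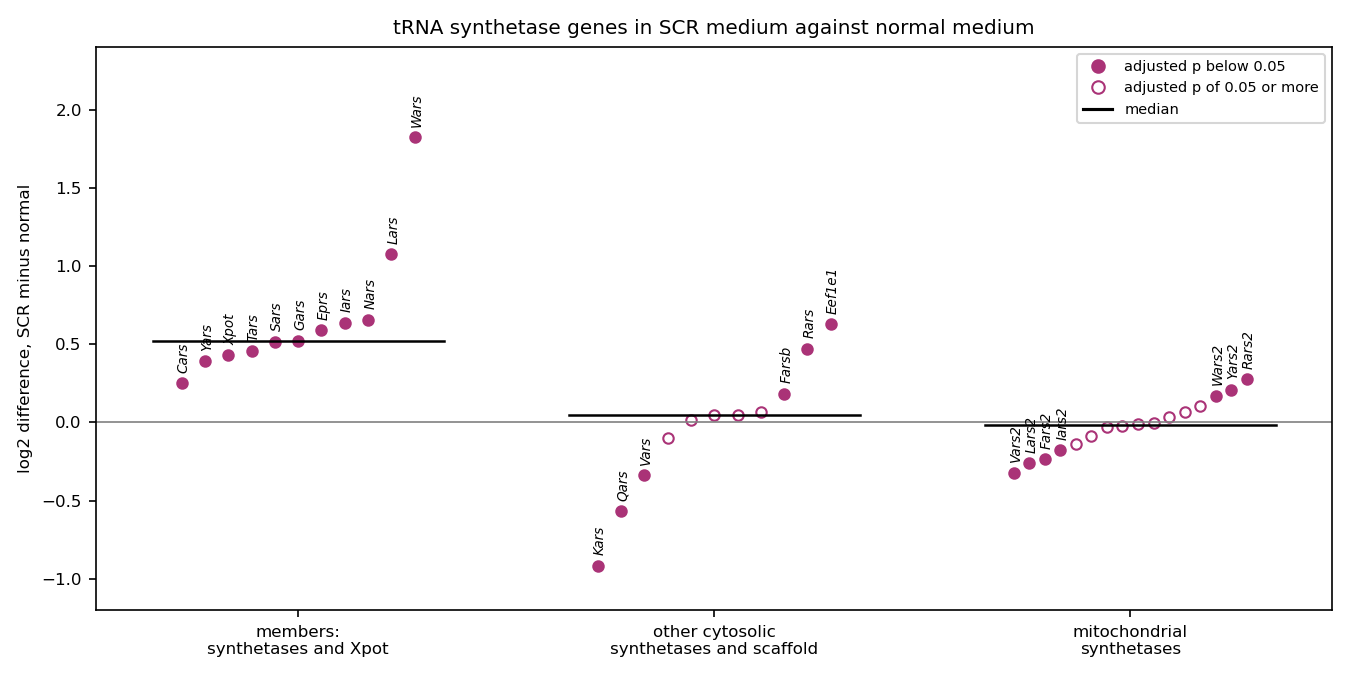
Log2 difference of SCR medium from normal medium for the 11 tested members of the synthetase and export group, 11 other cytosolic synthetases and scaffold proteins and 16 mitochondrial synthetases; each point is a gene, and called genes are named. All genes of the first group lie above 0, from 0.25 to 1.82, while the others lie on both sides of 0.

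Genes of the pathway outside the list were also counted. Of 9 amino acid transporters under ATF4, 8 were higher in SCR medium, with a median of 0.56. Slc7a11, the cystine transporter subunit, had levels of 12.39, 12.10 and 12.55 in SCR medium against 11.02, 11.00 and 10.94 in normal medium, and was 2.57-fold higher. Slc1a4, a carrier of alanine, serine and cysteine, was 2.51-fold higher, Slc7a1, a carrier of cationic amino acids, 1.57-fold and Slc38a2, a glutamine carrier, 1.41-fold. Among 7 other stress targets, 4 were higher and 2 lower. Gadd45a, a growth arrest gene, was higher by 2.17 and Sqstm1, which encodes the autophagy receptor p62, by 1.68. Atf3, a stress-induced factor downstream of ATF4, differed by -0.66 (SE 0.0854, adjusted p = 5.63e-05 by limma), with levels of 10.48, 10.54 and 10.74 in SCR medium against 11.33, 11.26 and 11.16 in normal medium.

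Upstream of ATF4, 6 genes for eIF2alpha kinases, a kinase inhibitor and a phosphatase partner were tested. In SCR medium 2 were higher and 3 lower. The 3 lower genes all encode eIF2alpha kinases, and no kinase gene was higher. Eif2ak4, which encodes GCN2, the eIF2alpha kinase that senses uncharged transfer RNA, differed by -0.56 (adjusted p = 8.47e-05 by limma). Impact, an inhibitor of GCN2, was higher by 0.82, and Ppp1r15b, the constitutive partner of the eIF2alpha phosphatase, by 0.46. In the XBP1 and ATF6 branches of the unfolded protein response, 6 of 9 genes were higher and none was lower. Hspa5, the chaperone BiP, was higher by 1.58, Creld2 by 1.23, Dnajb9 by 1.10 and Hyou1 by 0.83. Of 5 tested folate genes outside the list, some of them mitochondrial, 1 was higher (Mthfd2l, by 0.40) and 2 were lower. Of the 2 lower genes, Mthfd1, the cytosolic trifunctional enzyme, differed by -0.51.

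KO medium and SCR medium with CSH were also set against the same 3 arrays of normal medium, so the comparisons share them and their values are given side by side. In KO medium 32 of 37 members were higher and none was lower, with a median of 0.73 (0.01 for all genes). Of all genes, 39.1% changed, 21.4% upward and 17.6% downward. The arrays separated without overlap for 32 members, as they did for 49.8% of all genes. In SCR medium with CSH 32 were higher and 1 lower, with a median of 0.61 (0.03 for all genes). Of all genes, 35.8% changed, 20.9% upward and 14.9% downward. The arrays separated without overlap for 33 members, as they did for 46.8% of all genes. In all, 31 members were higher in each of the 3 conditioned media, a count not made over all genes. For all genes that share cannot exceed the 19.3% that were higher in SCR medium. Psat1, Shmt2 and Stc2 were called in none of the 3 conditioned media. The remaining 3 differed in their calls: Jdp2 was higher in KO and SCR medium, Mthfd1l was lower in both SCR media, and Pck2 was higher in SCR medium with CSH by 0.23 (adjusted p = 0.0375 by limma). A call in one medium and not in another does not show that the media differed.

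Ddit3 differed from normal medium by 2.91 in KO medium and 2.66 in SCR medium with CSH. Trib3 differed by 2.64 in KO medium and 2.44 in SCR medium with CSH, and Ppp1r15a by 2.70 in KO medium and 2.22 in SCR medium with CSH. For Aldh1l2 the differences were 2.96 in KO medium and 2.50 in SCR medium with CSH. For Cth they were 2.62 in KO medium and 2.19 in SCR medium with CSH, and for Wars 1.91 in KO medium and 1.86 in SCR medium with CSH. By role, the medians in KO medium were 0.62 for the regulators, 1.19 for the effectors, 0.28 for the serine and one-carbon enzymes, 0.80 for the other amino acid enzymes and 0.60 for the synthetase group. In SCR medium with CSH they were 0.50 for the regulators, 1.16 for the effectors, 0.36 for the serine and one-carbon enzymes, 0.68 for the other amino acid enzymes and 0.55 for the synthetase group.

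The comparison of KO with SCR medium asks whether losing JMJD6 in the source cells changes how RAW264.7 cells respond. Ddit4 was the 1 member called, and 0.27% of all genes were called, 0.254% higher and 0.0166% lower. With levels of 7.85 to 7.94 in KO medium against 7.23 to 7.36 in SCR medium, Ddit4 was higher by 0.61 (SE 0.102, adjusted p = 0.0263 by limma, 95% interval 0.39 to 0.83). The call was lost when any 1 of the KO or SCR arrays was left out. Its promoter window held none of the 3 motifs.

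A further 6 members had an unadjusted p under 0.05 and did not pass after adjustment. With Ddit4 that made 7 of 37 members at this limit, against 1078 of all genes (5.95%). Ppp1r15a differed by 0.53 (adjusted p = 0.342 by limma), Cth by 0.52 (0.493), Aldh1l2 by 0.34 (0.465), Sesn2 by 0.27 (0.599), Eif4ebp1 by 0.25 (0.485) and Mthfd2 by 0.20 (0.621). The KO arrays did not overlap the SCR arrays for 11 members, where 9.37% of all genes showed no overlap. The difference was above 0 for 36 of 37 members, with a median of 0.11, against 48.1% of all genes above 0 and a median of -0.003. This sign count rested partly on SCR replicate 3, which was the lowest SCR array for 31 of the 37 members and for 47.4% of all genes. Without it 26 members were above 0, against 44.8% of all genes, and the median was 0.073.

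Atf4 itself differed between KO and SCR medium by 0.01 (95% interval -0.192 to 0.205), and Ddit3 by 0.20 (-0.243 to 0.649). The 95% interval included 0 for 30 members, and it lay within 0.5 log2 units on both sides of 0 for 30. Of the other members, Cth had the highest upper bound, 0.876. None of the genes of the further lists was called in this comparison. Of the 9 amino acid transporters, 5 had an unadjusted p under 0.05, against 5.95% of all genes. The largest transporter difference was 0.43, that of Slc7a11, and the smallest adjusted p among them was 0.129 by limma.

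**Figure D5:**
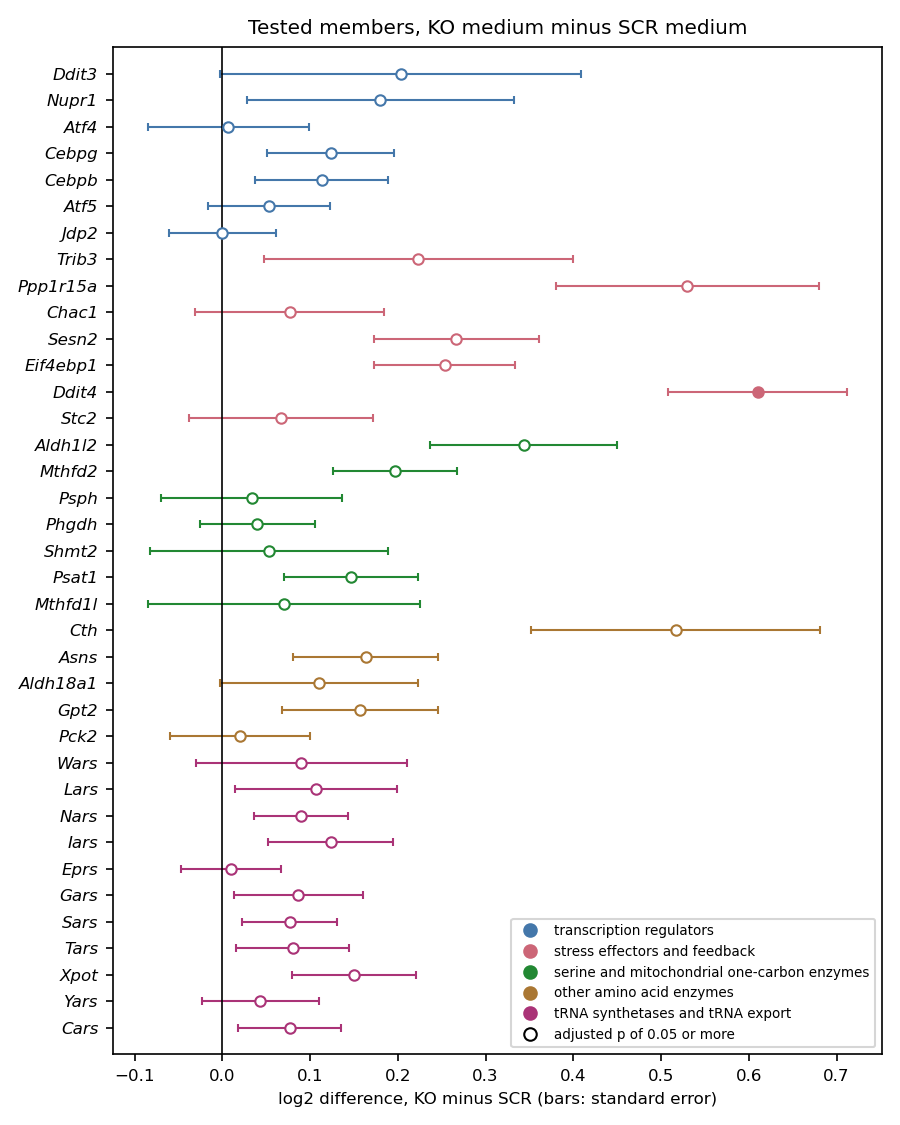
Log2 difference of KO medium from SCR medium for each tested member with its standard error (bars, n = 3 arrays per group). Ddit4, at 0.61, is the only filled point, the 1 member past the adjusted threshold; Ppp1r15a at 0.53 and Cth at 0.52 follow without passing it.

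CSH was added to SCR medium to ask whether the ANXA-1 receptor blocker alters the response. None of the 37 members was called by limma, and 0.0% of all genes were. At an unadjusted p under 0.05 there were 4 members: Shmt2 differed by 0.36, Pck2 by 0.22, Atf5 by 0.18 and Cars by 0.14, and 1131 of all genes (6.24%) met the same limit. Arrays of the groups were separate for 3 members, against 8.59% of all genes. The median over the members was 0.05, and 26 of 37 were above 0, against 54.9% of all genes. Single arrays moved both values. Without SCR replicate 3 there were 19 above 0 and the median was 0.002, and without SCR replicate 1 there were 31 and the median was 0.11. Without replicate 1 of SCR medium with CSH there were 20 and the median was 0.025, and without its replicate 2 there were 29 and the median was 0.082. For Shmt2, which stood between 12.51 and 13.02 in SCR medium with CSH against 12.33 to 12.66 in SCR medium, the groups overlapped. The 95% interval lay within 0.5 on both sides of 0 for 36 members, and the widest upper bound was that of Shmt2, 0.652. Trib3 differed by 0.02 (95% interval -0.359 to 0.406) and Ddit3 by -0.04 (-0.489 to 0.403). In the XBP1 and ATF6 branches 8 of 9 genes were below 0 and none was called, with Hspa5 at -0.36 (adjusted p = 0.684 by limma). Of these 9 genes, 4 had an unadjusted p under 0.05, against 6.24% of all genes. Arrays of the groups were separate for 4 of the 9, against 8.59% of all genes.

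KO medium was last set against SCR medium with CSH, where 1.9% of all genes were called, 1.21% higher and 0.695% lower. Ddit4 was again the 1 member called, higher by 0.63 (SE 0.102, adjusted p = 0.00912 by limma), with 7.85 to 7.94 in KO medium against 7.03 to 7.54 in SCR medium with CSH. Aldh1l2, with 12.45 to 12.71 in KO medium against 11.96 to 12.23 in SCR medium with CSH, differed by 0.46 (adjusted p = 0.0506 by limma) and missed the threshold. Groups did not overlap for 11 members, where 21.8% of all genes showed no overlap. The median over the members was 0.07, and 27 were above 0, against a median of -0.017 and 43.2% above 0 for all genes. Among the transporters, Slc7a11 was higher by 0.41 (adjusted p = 0.0482 by limma), with levels of 12.74, 12.73 and 12.85 in KO medium against 12.35, 12.29 and 12.45 in SCR medium with CSH. KO medium differed from SCR medium alone by 0.43 for this gene, without a call. Whether the call held under the alternative settings was not examined.

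Over the 4 media, the mean level was highest in KO medium for 27 of the 37 members, in SCR medium with CSH for 9, in SCR medium for 0 and in normal medium for 1, Mthfd1l. It was lowest in normal medium for 34. The ranking was not computed over all genes, and SCR replicate 3 was the lowest SCR array for 31 of the 37 members. Between conditioned media no member other than Ddit4 passed the test, so for the others these counts are not read as an order of the 3 conditioned media. The median of the members over the mean of normal medium was 0.76, 0.66 and 0.74 on the KO arrays, 0.71, 0.59 and 0.59 on the SCR with CSH arrays, 0.68, 0.50 and 0.60 on the SCR arrays and -0.07, 0.09 and -0.02 on the normal arrays.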

How the data were processed

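The deposited values were log2 signals that the authors made with RMA in Affymetrix Expression Console on build mm10, per the submitters' processing notes; the software version is not given in the sources used here. RMA scales the arrays together, so a change in total RNA would not show, and it compresses changes of dim genes. The table held 65528 probe sets and 0 missing values. Gene names came from the platform annotation, with symbols updated from RefSeq (GRCm38.p6, the assembly of mm10). There was 1 symbol for 31018 probe sets, 1478 with several symbols were not named, and 33032 had no listed gene. For 439 genes with several probe sets, the highest-mean one was used. Genes above the array median in at least 3 arrays were tested (18119).

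Differences came from limma 3.58.1 in R 4.3.3, with medium as the only term over 12 arrays and a trended eBayes prior. The fit left 8 residual degrees of freedom, with a median residual SD of 0.0964, and the number of arrays limits the precision. The fit was also run on simulated data with independent noise and shifts in SCR medium only. That run held no shared array effects, so it cannot show how such effects bear on the calls. Values on every array are printed for up to 4 tested members per role with the largest absolute difference of SCR from normal medium, for members called in KO or CSH against SCR medium, for members that fell and for Atf4. Up to 4 genes per further list are named by smallest p; the 6 called macrophage markers were chosen after their values were seen. Members, lists and printed sites were chosen with earlier results of these data known. The alternatives were quantile normalization, median centring, no filter and a stricter one, eBayes without trend, array weights, averaged probe sets, a replicate block, only the 6 arrays compared, and leaving out each array. Figures used matplotlib 3.10.9 in Python 3.11.15.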

Additional observations from a re-analysis of the deposited data

Results flagged for a closer look

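Ddit4 was flagged because its effect differed between media. The effect of KO medium exceeded that of SCR medium, both against normal medium, by 0.61 on the log2 scale (adjusted p = 0.0263 by limma, higher in 3 of 3 KO arrays than in any SCR array). It exceeded that of SCR medium with CSH by 0.63 (adjusted p = 0.00912 by limma, higher in 3 of 3 KO arrays than in any array of SCR medium with CSH). Both tests are of the difference itself, and they share the KO arrays. No cause was tested.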

How the results depend on the processing

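Medians of the members under the alternatives that kept all arrays of a comparison moved by less than the spread between arrays, a pooled SD of 0.0741 (60 of 60 values). That limit exceeded the main medians of SCR medium with CSH against SCR medium (0.047) and of KO medium against SCR medium with CSH (0.07). For these comparisons it therefore says little. The former ran from 0.022 with array weights to 0.092 with the fixed replicate block. Of 60 counts of called members, 54 were within 1.5 times the main count. For KO against SCR medium the count was 1, with 0 under no filter and 3 with array weights (Ddit4, Cth and Mthfd2), and it ranged from 0 to 2 when an array was left out. For KO medium against SCR medium with CSH the count was 1, with 2 under quantile normalization, the stricter filter, array weights and the random replicate block, and 1 to 2 when an array was left out. The median of KO against normal medium ranged from 0.648, without normal replicate 2, to 0.785, without normal replicate 3. Array weights gave SCR replicate 4 a weight of 6.14, and their estimate stopped before it converged.

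Uncalled differences of KO from SCR medium changed sign. Atf4 was -0.022 under quantile normalization, -0.099 with array weights and -0.058 to 0.067 when an array was left out. Chac1 was -0.047 with array weights. Mthfd1l was -0.04 with array weights, -0.031 with the fixed replicate block and -0.047 to 0.177 when an array was left out. Psph ranged from -0.017 to 0.118 and Wars from -0.012 to 0.163 when an array was left out. The call of Ddit4 in this comparison was lost without a filter (adjusted p = 0.0539 by limma) and ranged from 0.00479 to 0.135 in adjusted p when an array was left out. That of Mthfd1l in SCR against normal medium was lost without a filter (adjusted p = 0.0831 by limma), with array weights (0.107) and with the fixed replicate block (0.0903). The causes were not tested.

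Over all genes, calls in KO against SCR medium numbered 49 (46 higher, 3 lower), with 376 under array weights (220 higher, 156 lower), 39 with the fixed replicate block (30 higher, 9 lower), 22 in the 6 arrays alone, 20 to 25 without any 1 SCR array, 20 without KO replicate 1 and 22 without KO replicate 3. In KO medium against SCR medium with CSH they numbered 345 (219 higher, 126 lower), with 574 under quantile normalization, 154 under median centring (120 higher, 34 lower), 210 without a filter, 654 with array weights, 214 with the fixed replicate block, 162 in the 6 arrays alone, 124 to 157 without any 1 KO array, and 107 and 201 without replicates 2 and 4 of SCR medium with CSH. In SCR medium with CSH against SCR medium they numbered 0, with 79 under array weights and 1 under the stricter filter or the random replicate block. Samples with the same number deviated together by correlations of -0.0653 to 0.295, and samples with different numbers by -0.234 to 0.211. For replicate 1 the correlations were 0.141 (SCR and KO medium), 0.295 (SCR medium and SCR medium with CSH) and 0.211 (KO medium and SCR medium with CSH). For replicate 2 they were 0.0751 (normal and KO medium), 0.118 (normal medium and SCR medium with CSH) and 0.25 (KO medium and SCR medium with CSH). For replicates 3 and 4 they ran from -0.0653 to 0.0629. Same-number correlations were not over 0.1 for every pair, so the numbers were not taken as pairs. Whether some numbers share a batch was not tested. The random replicate block had a correlation of 0.0883.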
